A study of Mus musculus with 16 samples.

Results

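The genes described here are Apoe and the 4 genes beside it on mouse chromosome 7: the apolipoprotein genes Apoc1, Apoc4 and Apoc2, and Tomm40. A probe set was taken as a member where the platform annotation gave it exactly 1 of these symbols, which selected 5 probe sets, 1 for each gene, out of 45101 on the array, and 5 genes of 18193 symbols. Across 4 groups of 4 aortas, 1 member passed a test. Tomm40 rose 1.30-fold with ruboxistaurin in non-diabetic mice, and that call was lost when most single arrays were left out. Apoe was lower in all 4 diabetic mice on ruboxistaurin than in any diabetic mouse without it or any non-diabetic mouse on it, and Apoc2 was higher in all 4 diabetic mice than in any non-diabetic mouse, both without RBX, but neither passed adjustment.

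Whole aorta was taken from 16 mice, 1 array each, in a design that crosses diabetes with inhibition of protein kinase C beta in an atherosclerosis model. All mice, controls included, carry the APOE-/- genotype, were bought from The Jackson Laboratory at 5 weeks of age, ate a high fat diet from 8 weeks for 10 weeks, and were 18 weeks old. Each of the groups, non-diabetic mice and diabetic mice, was split by RBX, which gives 4 groups of 4. Diabetes was induced with STZ (streptozotocin, a toxin of insulin-producing beta cells) at 6 weeks, and RBX (ruboxistaurin, also called LY333531), which blocks protein kinase C beta, was given with the diet. The dose of RBX, the sex of the mice and any vehicle given to the non-diabetic mice are not given in the sources used here. No group had an intact Apoe gene, so no value below compares a disrupted with an intact allele. The position of the Apoe probe set relative to the disruption is not known here, so its signal tests no label and is no measure of functional protein.

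Apolipoprotein E is the ligand through which remnant lipoproteins bind the LDL receptor and LRP1, and it is made in liver and in macrophages of the artery wall. Apolipoprotein C2 is the cofactor that lipoprotein lipase needs, apolipoprotein C1 slows lipolysis and receptor uptake, and apolipoprotein C4 is a minor lipoprotein component. In macrophages the apolipoprotein genes of this cluster are known targets of liver X receptors, nuclear receptors for oxysterols. Tomm40 encodes the channel through which proteins enter mitochondria, and it is the one member that has no part in lipid transport.

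In the RefSeq gene table of assembly GRCm38.p6 the order along chromosome 7 is Clptm1, Apoc2, Apoc4, Apoc1, Apoe, Tomm40, Nectin2, and all 5 members lie on the minus strand. A RefSeq gene named Gm44805, with the synonym Apoc4-apoc2, shares its start with Apoc4 and its end with Apoc2, and whether either probe set reads its transcripts was not checked here. Promoter windows of 300 bases, 250 before to 50 after the start, are shown for the members whose values the comparisons turn on and for Apoc4, the partner of Apoc2. They come from RefSeq on GRCm38.p6, and capitals mark the matches to the motifs named after them. RefSeq gives Apoe 3 starts, of which the first entry is shown.

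Tomm40, chr7:19715380-19715679, minus strand: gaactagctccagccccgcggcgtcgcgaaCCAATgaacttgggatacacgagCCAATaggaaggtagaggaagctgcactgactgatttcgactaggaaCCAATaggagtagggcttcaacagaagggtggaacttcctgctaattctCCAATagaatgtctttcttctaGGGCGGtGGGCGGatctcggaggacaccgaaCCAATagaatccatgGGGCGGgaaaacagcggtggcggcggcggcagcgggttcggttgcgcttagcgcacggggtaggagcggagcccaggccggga
Apoe, chr7:19699139-19699438, minus strand: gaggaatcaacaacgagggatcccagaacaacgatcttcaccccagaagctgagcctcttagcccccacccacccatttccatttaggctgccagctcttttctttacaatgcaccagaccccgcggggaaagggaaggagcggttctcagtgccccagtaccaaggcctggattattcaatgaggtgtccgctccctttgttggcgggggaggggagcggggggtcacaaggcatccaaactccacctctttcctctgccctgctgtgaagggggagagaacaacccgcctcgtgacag
Apoc4, chr7:19681411-19681710, minus strand: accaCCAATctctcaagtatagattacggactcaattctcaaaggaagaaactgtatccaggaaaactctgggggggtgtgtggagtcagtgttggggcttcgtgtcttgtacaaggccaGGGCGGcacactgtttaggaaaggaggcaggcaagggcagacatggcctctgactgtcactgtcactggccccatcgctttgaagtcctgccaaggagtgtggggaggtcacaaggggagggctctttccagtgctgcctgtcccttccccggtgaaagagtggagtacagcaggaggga
Apoc2, chr7:19677892-19678191, minus strand: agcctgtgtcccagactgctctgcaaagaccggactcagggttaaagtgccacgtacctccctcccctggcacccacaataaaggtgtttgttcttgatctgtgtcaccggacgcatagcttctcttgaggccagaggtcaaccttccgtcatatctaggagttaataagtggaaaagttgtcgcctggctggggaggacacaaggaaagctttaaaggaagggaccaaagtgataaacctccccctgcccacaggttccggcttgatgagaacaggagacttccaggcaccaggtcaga

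Of the 5 members, 4 had an entry, and Apoc1 is named only. The windows were searched on both strands, with overlapping matches counted, for the letters of the CCAAT box, for the GC box with the letters GGGCGG, for the TATA box with the letters TATAAA, and for the DR4 repeat, the spaced hexamer repeat that liver X receptors are known to bind. The Tomm40 window held 5 matches to CCAAT and 3 to GGGCGG. At least 5 matches to CCAAT were found in 0.271% of 32817 promoter windows of the same length, and at least 3 to GGGCGG in 10.7%. The Apoc4 window held 1 match to CCAAT and 1 to GGGCGG, and the Apoe and Apoc2 windows shown held none to any of the 4. The window at the second Apoe start, not shown, held 2 overlapping matches to TATAAA. At least 1 match was found in 37.4% of all windows for CCAAT, 35.6% for GGGCGG, 13.6% for TATAAA and 0.0152% for the DR4 repeat. A match is a string of letters in the window and no evidence of binding.

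The values are MAS5 signals, a linear intensity that was scaled to the same trimmed mean on every array. They compare 1 probe set between arrays and do not rank different genes. Differences were tested with limma on log2 signals over 45037 probe sets, and a gene is said to have risen or fallen where its Benjamini-Hochberg adjusted p was under 0.05. The 4 comparisons of 2 groups share groups, since each group enters a pair of them, so they are not independent of each other. The tissue is bulk, in which fewer cells of a type and less RNA per cell cannot be told apart.

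The arrays of non-diabetic RBX mice differed from the others in their controls. The mean log2 signal of the cre hybridisation controls was 18.4 in that group, against 17.1 in non-diabetic mice without RBX, and 17.5 and 17.7 in diabetic mice without and with RBX. The Actb 3'/5' probe set ratio, which follows RNA integrity and labelling, had a mean log2 of 2.08 there, against 1.04, 1.34 and 1.71 in the same order. Acta2, the smooth muscle actin that marks the aortic media, averaged between 165904 and 215298 by group, so this marker of the labelled tissue was present in all groups. It is 1 of 8 smooth muscle markers and does not stand for the others. With RBX in non-diabetic mice 7 of the 8 lay below 0 and 5 fell, with a median log2 difference of -0.96.

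**Figure D1:**
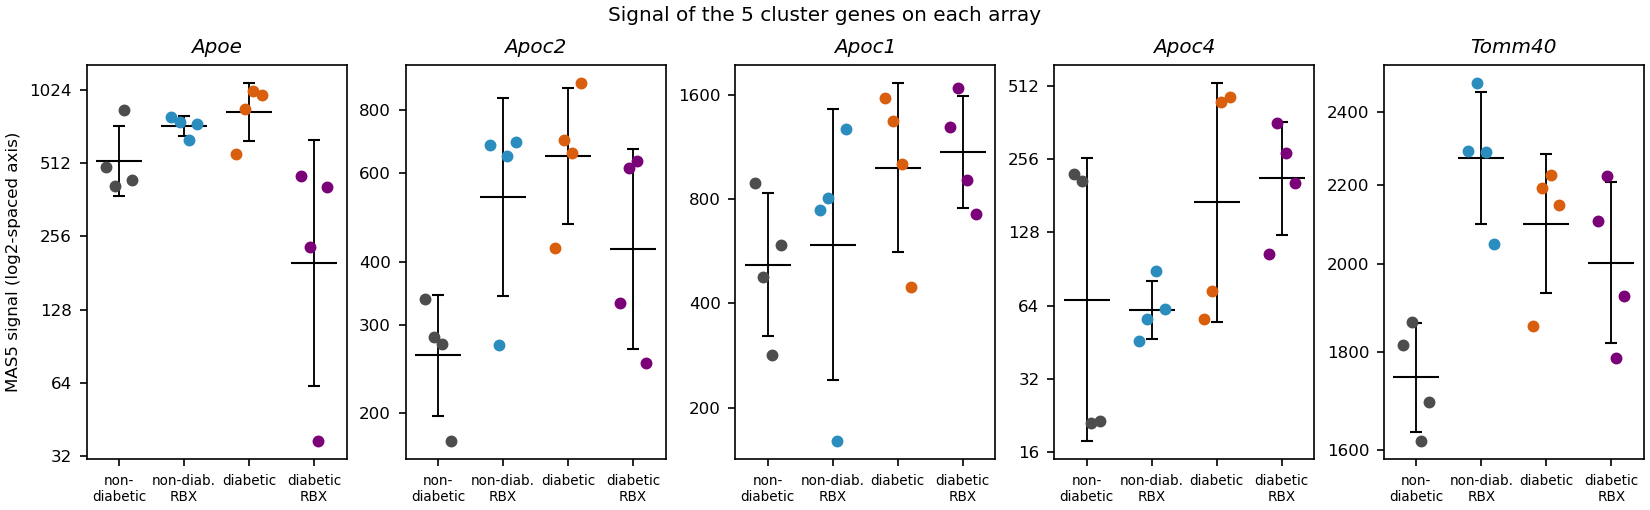
MAS5 signal of each member on every array, on a log2-spaced axis, by group (4 mice each). Each point is 1 mouse, and the bar and whiskers are the mean and SD of the log2 values. Tomm40 keeps within 1617.5 to 2485.4, whereas Apoe falls to 36.9 in 1 diabetic RBX mouse and Apoc4 spans 21.0 to 461.3.

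Apoe, the lipoprotein ligand, had its steadiest values in the non-diabetic RBX mice and its lowest in the diabetic RBX mice. The 4 non-diabetic mice gave signals of 493.4, 410.4, 843.2 and 435.9, and the 4 non-diabetic RBX mice gave 790.0, 753.3, 635.3 and 740.8. The diabetic mice gave 557.3, 857.2, 1015.0 and 974.2, and the diabetic RBX mice gave 453.2, 231.6, 36.9 and 406.6. The diabetic RBX values lie below every value of the diabetic and of the non-diabetic RBX mice, and overlap those of the non-diabetic mice, whose lowest was 410.4. Without RBX the means were 546 ± 201 in non-diabetic and 851 ± 207 in diabetic mice, and with RBX they were 729.8 ± 66.4 and 282 ± 189 (SD, n = 4 each). In order from the lowest, the groups were diabetic RBX, non-diabetic, non-diabetic RBX and diabetic, and neighbours in that order overlapped.

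For Apoe, diabetes with RBX gave a log2 difference of -1.87 (SE 0.53, 95% interval -2.98 to -0.76), with a limma adjusted p of 0.0629. RBX in diabetic mice gave -2.06 (SE 0.53), with a limma adjusted p of 0.271 and an unadjusted p of 0.000928. The interaction, which is the RBX effect in diabetic minus that in non-diabetic mice, was -2.54 (SE 0.76, limma adjusted p = 0.0677). Diabetes without RBX gave 0.67 (SE 0.53, limma adjusted p = 0.802) and RBX in non-diabetic mice 0.48 (SE 0.53, limma adjusted p = 0.625). Without diabetic RBX mouse 3, whose signal was 36.9, the differences were -1.06 (limma adjusted p = 0.117) for diabetes with RBX, -1.25 for RBX in diabetic mice (limma adjusted p = 0.362) and -1.72 (limma adjusted p = 0.042) for the interaction. Diabetic RBX mouse 3 therefore set a large part of each Apoe difference, and of these 3 values the interaction passed without it. Its signal of 36.9 lay close to 30.5, the 10th percentile of all signals, whereas 54.6% of probe sets lay below the mean of Apoe.

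Apoc2, the lipoprotein lipase cofactor, with 52.5% of probe sets below its mean, was lowest in the non-diabetic mice. Its signals were 337.0, 283.1, 274.8 and 176.3 in non-diabetic mice and 679.3, 273.6, 647.0 and 689.7 in non-diabetic RBX mice. They were 425.8, 697.9, 655.9 and 902.6 in diabetic mice and 331.5, 611.5, 631.4 and 251.7 in diabetic RBX mice. All diabetic values exceeded all non-diabetic values, while 1 non-diabetic RBX mouse, at 273.6, stood within the non-diabetic range and the other 3 above it. Without RBX the means were 268 ± 66.9 in non-diabetic and 671 ± 196 in diabetic mice, and with RBX they were 572 ± 200.0 and 457 ± 193 (SD, n = 4 each). From the lowest the order was non-diabetic, diabetic RBX, non-diabetic RBX and diabetic, and neighbours in that order overlapped.

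For Apoc2, diabetes without RBX gave a log2 difference of 1.31 (SE 0.39, 95% interval 0.50 to 2.13, limma adjusted p = 0.214). RBX in non-diabetic mice gave 1.04 (SE 0.39, limma adjusted p = 0.0898), and leaving out non-diabetic RBX mouse 2 raised this to 1.37 (limma adjusted p = 0.0227). It did not pass when any of the other 7 mice of these groups was left out (limma adjusted p up to 0.236). Diabetes with RBX gave -0.34 (limma adjusted p = 0.739) and RBX in diabetic mice -0.61 (limma adjusted p = 0.736). The interaction of -1.65 (SE 0.56) had a limma adjusted p of 0.112, and without non-diabetic RBX mouse 2 it was -1.98 (limma adjusted p = 0.0355). The interaction did not pass when any of the other 15 mice was left out (limma adjusted p up to 0.214).

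Apoc1, which slows lipolysis and uptake, varied widely inside every group. Its signals were 893.2, 475.4, 284.5 and 591.5 in non-diabetic mice and 742.7, 804.5, 160.0 and 1275.2 in non-diabetic RBX mice. They were 1570.9, 1343.4, 1010.8 and 445.4 in diabetic mice and 1296.0, 1674.8, 905.8 and 726.1 in diabetic RBX mice. All groups overlapped, and the means were 561 ± 255, 746 ± 457, 1093 ± 489 and 1151 ± 423 in that order (SD, n = 4 each). Diabetes gave a log2 difference of 0.93 (SE 0.50, limma adjusted p = 0.62) without RBX and 0.89 (SE 0.50, limma adjusted p = 0.42) with it. RBX gave 0.19 (95% interval -0.85 to 1.24) in non-diabetic and 0.15 (95% interval -0.90 to 1.19) in diabetic mice, intervals that hold changes in either direction. Their difference, the interaction, was -0.05 (SE 0.71).

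Apoc4 was read at a low signal, with 26.4% of probe sets below its mean, and it differed widely between mice of a group. Its signals were 223.4, 207.7, 21.0 and 21.4 in non-diabetic mice, which fall into a high and a low pair. They were 45.8, 56.4, 88.4 and 61.9 in non-diabetic RBX mice, 56.2, 73.4, 439.5 and 461.3 in diabetic mice, and 103.9, 360.8, 270.5 and 204.8 in diabetic RBX mice. Every diabetic RBX value exceeded every non-diabetic RBX value, and the other groups overlapped. Without RBX the means were 118 ± 112 in non-diabetic and 258 ± 223 in diabetic mice, and with RBX they were 63.1 ± 18.1 and 235.0 ± 108 (SD, n = 4 each). Diabetes with RBX gave a log2 difference of 1.80 (SE 0.91, limma adjusted p = 0.352), and diabetes without RBX 1.33 (SE 0.91, limma adjusted p = 0.745). RBX gave -0.14 in non-diabetic and 0.33 in diabetic mice, each with an SE of 0.91, and the interaction was 0.47 (SE 1.29).

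Tomm40, the mitochondrial import channel, differed least between mice of a group. Its signals were 1815.1, 1867.0, 1617.5 and 1695.2 in non-diabetic mice and 2290.1, 2485.4, 2287.4 and 2048.2 in non-diabetic RBX mice. They were 1856.4, 2191.3, 2225.8 and 2146.4 in diabetic mice and 2107.0, 2224.6, 1786.3 and 1926.1 in diabetic RBX mice. Every non-diabetic RBX value exceeded every non-diabetic value, and the diabetic groups lay between, overlapping both. The means were 1749 ± 113, 2278 ± 179, 2105 ± 169 and 2011 ± 194 in that order (SD, n = 4 each).

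Tomm40 rose with RBX in non-diabetic mice, with a log2 fold change of 0.38 (SE 0.12, 95% interval 0.13 to 0.63, limma adjusted p = 0.0445). The median over all probe sets in that comparison was 0.16, and under quantile normalization, which removes that shift, Tomm40 had 0.41 (limma adjusted p = 0.0318). The call held without non-diabetic RBX mouse 4 (limma adjusted p = 0.0358) and was lost when any of the other 7 mice of these groups was left out, with log2 values of 0.34 to 0.41 and limma adjusted p-values from 0.0641 to 0.104. It was also lost with the replicate block (limma adjusted p = 0.0535), with array weights (0.0593) and without the intensity trend (0.0654). With the log2 cre signal as a covariate the value was 0.59 (limma adjusted p = 0.494), and with the Actb ratio 0.54 (limma adjusted p = 0.381). The part of these array differences in the result was not tested. Diabetes without RBX gave 0.27 (SE 0.12, limma adjusted p = 0.523), diabetes with RBX -0.18 (limma adjusted p = 0.512), RBX in diabetic mice -0.07 (limma adjusted p = 0.939), and the interaction -0.45 (SE 0.17, limma adjusted p = 0.177).

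**Figure D2:**
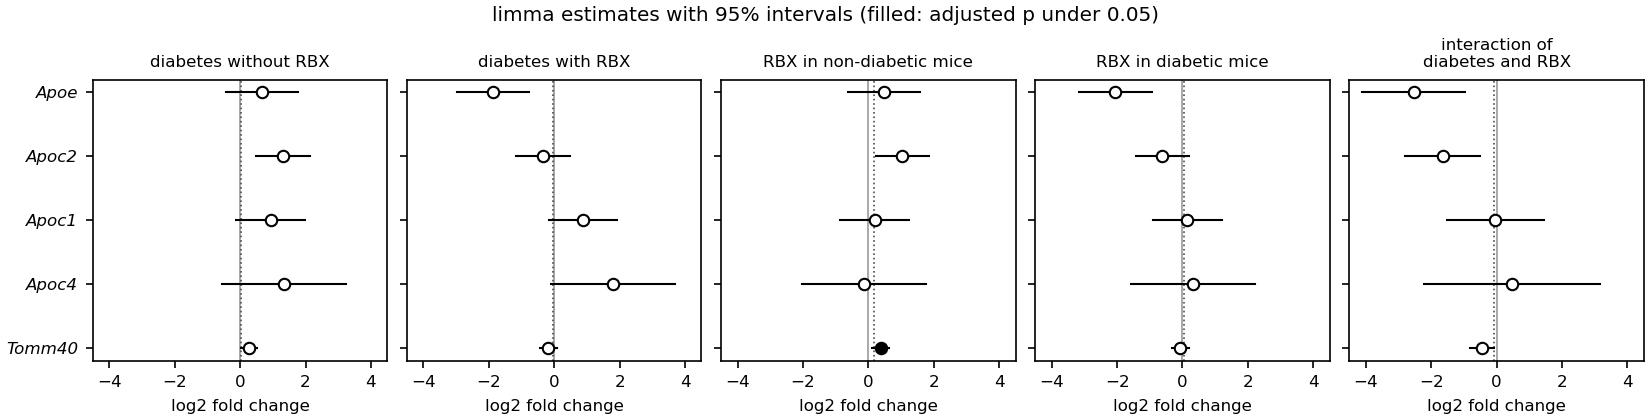
Log2 fold change of each member in the 5 comparisons, with 95% intervals from limma (16 arrays). Open points did not pass and the filled point did, the dotted line is the median of all probe sets, and the 1 filled point is Tomm40 for RBX in non-diabetic mice at 0.38.

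The members' counts are given beside those of all probe sets, and with 5 members 1 gene is a large share. In diabetes without RBX 0 of 5 members passed by limma, with 2 at an unadjusted p under 0.05 (Tomm40 and Apoc2), where 0.147% of probe sets passed and 9.04% had such an unadjusted p. In diabetes with RBX 0 of 5 passed, with 1 at an unadjusted p under 0.05 (Apoe), against 2.93% and 15.5% of probe sets. For RBX in non-diabetic mice 1 of 5 passed, with 2 at an unadjusted p under 0.05 (Tomm40 and Apoc2), against 12.5% and 25.9%. For RBX in diabetic mice 0 of 5 passed, with 1 at an unadjusted p under 0.05 (Apoe), against 0.02% and 7.75%. For the interaction 0 of 5 passed, with 3 at an unadjusted p under 0.05 (Tomm40, Apoe and Apoc2), against 3.63% and 16.4%.

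Groups that did not overlap were found for 1 member in diabetes without RBX (Apoc2), where 6.03% of probe sets had them, and for 2 members in diabetes with RBX (Apoe and Apoc4), where 8.03% had them. They were found for 1 member with RBX in non-diabetic mice (Tomm40; 16.1% of probe sets) and for 1 with RBX in diabetic mice (Apoe; 5.68%). The members' median log2 difference was 0.93 in diabetes without RBX. There all 5 members lay above 0, as did 11 of 13 measured genes flanking the cluster. In diabetes with RBX, RBX in non-diabetic mice, RBX in diabetic mice and the interaction the members' median was -0.18, 0.38, -0.07 and -0.45. The medians over all probe sets were 0.04, -0.05, 0.16, 0.04 and -0.09.

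**Figure D3:**
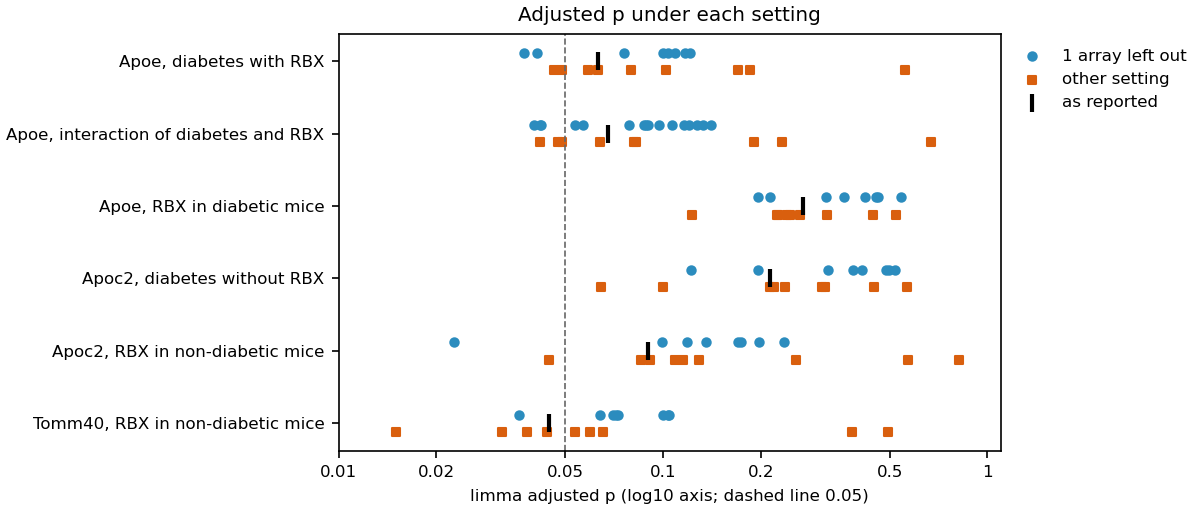
Limma adjusted p, on a log10 axis with a dashed line at 0.05, for 6 member results as reported (bar), with 1 array left out (circles) and under the other settings (squares). Tomm40 moves from 0.0150 to 0.494, and Apoe for diabetes with RBX and for the interaction crosses the line in a few settings.

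The spread between mice of a group differed between members. The SD of log2 signal within groups was 0.12 for Tomm40, 0.55 for Apoc2, 0.88 for Apoc1, 0.90 for Apoe and 1.34 for Apoc4. Spread depends on signal, so each was set against probe sets whose mean log2 signal lay within 0.25 of its own. Apoc1 varied more than 98.0% of 2732 such probe sets and Apoe more than 93.3% of 2731, but more than 34.7% once diabetic RBX mouse 3 was left out. Apoc2 varied more than 57.8% of 2654 and Apoc4 more than 50.9% of 3171. Tomm40 varied more than 1.91% of 2455, which places it among the steadiest probe sets of its brightness.

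No pair of members passed a test of moving together from mouse to mouse, among 10 pairs over the 16 arrays. The highest Pearson r was 0.511 for Tomm40 and Apoc2 (permutation p = 0.0455, adjusted 0.455; Spearman rho 0.424, permutation p = 0.104), and it was 0.272 without the 2 arrays farthest from the median of Tomm40. Apoe and Apoc2 had an r of 0.0337 (permutation p = 0.924) and a rho of 0.512 (permutation p = 0.0453, adjusted 0.426), and r was 0.711 without the 2 arrays farthest from the median of Apoe. As deviations from group means, which leave out differences between groups, that pair gave an r of -0.326 (permutation p = 0.444). Tomm40 and Apoc2 gave an r of 0.0088 on that measure (permutation p = 0.977). Apoc4 and Apoc2, which share the read-through gene, gave the highest r of deviations, 0.489 (permutation p = 0.0274, adjusted 0.274; rho 0.556, permutation p = 0.0140, adjusted 0.140). All pairs share the arrays and their scaling.

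For each member the 5 genes with the most similar within-group deviations were taken from 11041 genes above the median signal (11042 for Apoc4), with Pearson r over 16 arrays as a description. Apoe was closest to Abcf2 (r = 0.911), Wdr24 (0.898), Cfap126 (0.879), Wdhd1 (0.836) and Ube2d-ps (0.828). The Spearman rho of the same deviations was 0.876, 0.632, 0.824, 0.612 and 0.526 in that order. Diabetic RBX mouse 3, with an Apoe signal of 36.9, lay farthest from its group mean, and r without it was not computed. Apoc2 was closest to Sorcs2 (r = 0.839), Dcaf10, Dpy19l1, Nckipsd and Creb3l3. Apoc1 was closest to Btc (r = 0.878), Gucd1, Esr1, Elp3 and Plaat3. Apoc4 was closest to Smap2 (r = 0.876), Gorasp2, Prrc2a, Mgat5 and Cytip. Tomm40 was closest to Clec16a (r = 0.885), Fbxw8, Lrrc41, Crtap and Nes. With the group differences left in, r with Tomm40 was 0.667, 0.471, 0.478, 0.0738 and 0.202 in that order. None of these genes is another member of the cluster, which says little about the cluster. Apoc4 lay below the median signal and could not be listed, and each member had only 5 places.

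The genes on either side were measured to ask whether the neighbourhood changed as a block. Of 13 measured flanking genes, 2 rose and 1 fell with RBX in non-diabetic mice, where 16.2% of all 18193 genes passed. Clasrp, which binds splicing kinases, had a log2 fold change of 0.91 (SE 0.19, limma adjusted p = 0.00297). Nectin2, an adhesion molecule next to Tomm40, had 0.64 (SE 0.20, limma adjusted p = 0.0402), and this call was lost under quantile normalization (0.56, limma adjusted p = 0.0899). Bcam, the basal cell adhesion molecule beyond Nectin2, fell by 1.20 (SE 0.19, limma adjusted p = 0.000194). In the other comparisons of 2 groups 0 of 13 passed by limma, with 4, 3 and 0 at an unadjusted p under 0.05 for diabetes without RBX, diabetes with RBX and RBX in diabetic mice. Clptm1, which borders the cluster on the side of Apoc2, had 0.13 (SE 0.13, limma adjusted p = 0.588) with RBX in non-diabetic mice. The calls had both signs within the stretch. Called or not, 10 of 13 flanking genes lay above 0 with RBX in non-diabetic mice and 11 in diabetes without RBX. In diabetes with RBX and with RBX in diabetic mice 3 of 13 did so in each. The flanking median was 0.38 with RBX in non-diabetic mice and 0.16 in diabetes without RBX, against 0.16 and 0.04 for all probe sets.

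**Figure D4:**
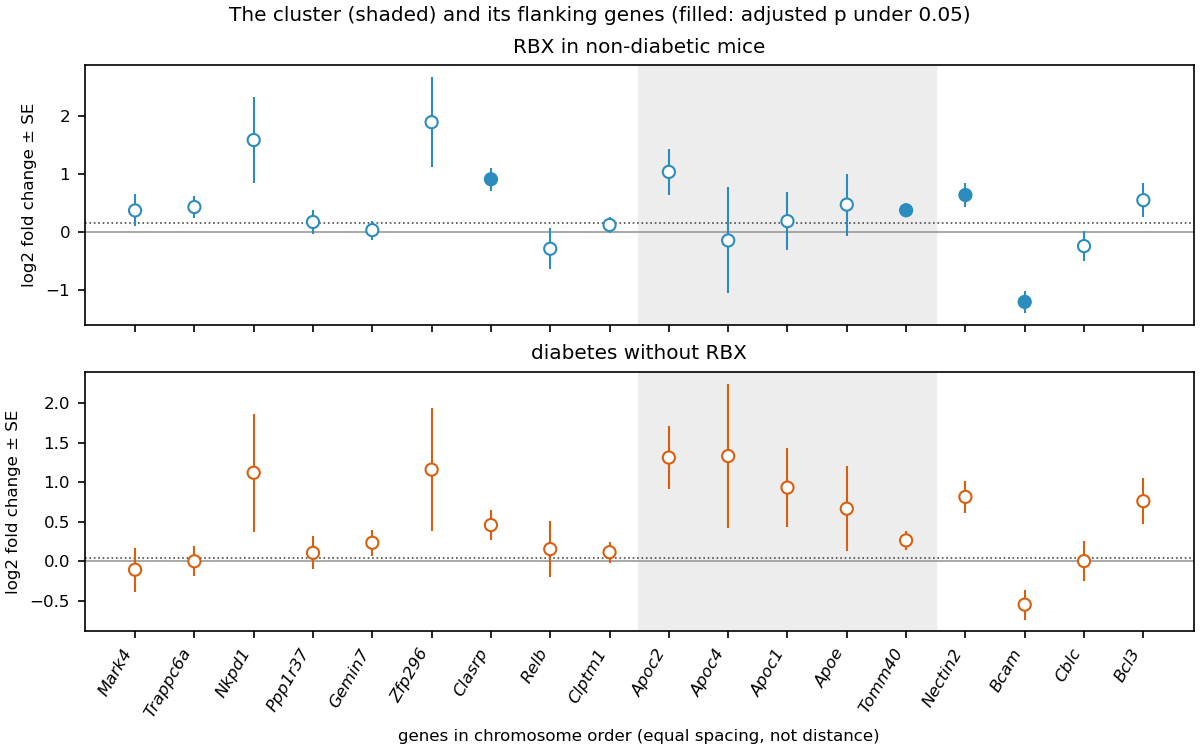
Log2 fold change of the members and of the flanking genes in their order along chromosome 7, equally spaced, with standard errors, for RBX in non-diabetic mice (top) and diabetes without RBX (bottom). The members are shaded, filled points passed, and the dotted line is the median of all probe sets. Clasrp, Tomm40 and Nectin2 passed above 0 and Bcam below it in the top panel. In the bottom panel all 5 members and 11 of 13 flanking genes lie above 0 without passing.

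The genes through which the cluster's products act were followed in lists. In the list of lipoprotein lipase and plasma lipid remodelling, 5 of 10 measured genes rose and 0 fell with RBX in non-diabetic mice (median log2 0.79, against 0.16 for all probe sets), where 16.2% of all genes passed. Under quantile normalization 4 rose and the list's median was 0.46. Lpl, the lipase that apolipoprotein C2 activates, had 0.94 (SE 0.19, limma adjusted p = 0.00171). Gpihbp1, which anchors that lipase on capillary endothelium, had 1.53 (SE 0.31, limma adjusted p = 0.00216), and Angptl4, which inhibits it, had 0.87 (SE 0.18, limma adjusted p = 0.00274). Pltp, the phospholipid transfer protein, had 0.79 (SE 0.17, limma adjusted p = 0.00294), and Angptl8, a regulator of the lipase, had 3.10 (SE 1.01, limma adjusted p = 0.0484), a call that was lost under quantile normalization and in 13 of 16 alternatives in all. In diabetes without RBX, diabetes with RBX and RBX in diabetic mice 0 of 10 passed by limma, with 1, 7 and 2 at an unadjusted p under 0.05.

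Of 14 measured receptors and uptake genes, 2 rose and 1 fell with RBX in non-diabetic mice. This share, and those of 3 of 13 in the flanking, liver X receptor and import lists, are not far from the 16.2% of all genes, and nothing particular to these lists is read from them. Cd36, a fatty acid and oxidised LDL receptor, had 1.07 (SE 0.21, limma adjusted p = 0.00159), and Lrp1, a remnant receptor for apolipoprotein E, had 0.34 (SE 0.11, limma adjusted p = 0.0463). Sorl1, a sorting receptor that binds apolipoprotein E, fell by 1.46 (SE 0.14, limma adjusted p = 1.5e-06), and rose by 0.91 with diabetes with RBX (SE 0.14, limma adjusted p = 0.000692). Of 13 measured genes of liver X receptors and their targets, 3 rose with RBX in non-diabetic mice: Nr1h3, which encodes a liver X receptor, at 0.86 (SE 0.18, limma adjusted p = 0.00213), Abcg1, a cholesterol exporter, at 0.61 (SE 0.19, limma adjusted p = 0.0431), and Pltp. In diabetes with RBX Nr1h3 fell by 0.78 (SE 0.18, limma adjusted p = 0.0166). In the list of the outer mitochondrial membrane translocase 13 genes were measured. The list is wider than the complex of Tomm40, so its counts are not counts of that complex. Samm50 (0.54, limma adjusted p = 0.00187) and Mtx2 (0.46, limma adjusted p = 0.0209) rose with RBX in non-diabetic mice, and both belong to the machinery that inserts proteins into the outer membrane. Tomm70a, an import receptor of the same list, fell by 0.48 (limma adjusted p = 0.0185). In diabetes with RBX Mtx2 fell by 0.48 (SE 0.13, limma adjusted p = 0.0434). When each of the 8 arrays was left out in turn, the calls for RBX in non-diabetic mice held in 1 of 8 cases for Lrp1 and Angptl8, 3 for Abcg1 and Nectin2, 4 for Mtx2 and 5 for Tomm70a. Of 13 other apolipoprotein genes 0 passed by limma in any of the 5 comparisons, with 0 to 2 at an unadjusted p under 0.05.

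Markers of several cell types were followed in the same way, first for RBX in non-diabetic mice, in which 16.2% of all genes passed. With RBX in non-diabetic mice 14 of 22 macrophage and foam cell markers, 6 of 8 endothelial and 3 of 6 fibroblast markers rose, and 5 of 8 smooth muscle markers fell. Of the hepatocyte and adipocyte markers 2 of 10 and 1 of 7 rose, shares near that of all genes. Called or not, all 10 and all 7 lay above 0, with 5 and 4 at an unadjusted limma p under 0.05. Their median log2 differences were 1.12 and 1.29, against 0.16 for all probe sets. Under quantile normalization 9 macrophage, 5 endothelial and 2 fibroblast markers rose, 7 smooth muscle markers and 1 fibroblast marker fell, and Dcn, called before, changed sign. In diabetes with RBX, where 3.24% of all genes passed, 4 of 8 smooth muscle markers rose. There 1 of 22 macrophage and 1 of 6 fibroblast markers fell, and 20 of 22 macrophage markers lay below 0. In diabetes without RBX no marker passed, and all 22 macrophage markers lay above 0, 11 at an unadjusted limma p under 0.05. With RBX in diabetic mice no marker passed. The sums that follow add linear signals of different probe sets, so the brightest weigh most and the markers do not count equally. Summed macrophage markers ran from 656751.3 to 969970.5 in non-diabetic and from 919731.5 to 1565550.3 in non-diabetic RBX mice. They ran from 806650.2 to 1065832.3 in diabetic and from 897945.8 to 974895.8 in diabetic RBX mice. Summed smooth muscle markers ran from 421054.9 to 459645.8, from 295227.6 to 458420.1, from 370333.4 to 448163.7 and from 460667.1 to 505976.5 in the same order. Summed hepatocyte markers, of interest because the liver secretes these apolipoproteins, ran from 13927.9 to 28420.4, 16667.1 to 45175.1, 15789.1 to 36844.6 and 22494.6 to 43967.2. Within the hepatocyte list Alb, the defining gene, was at 156 ± 85.4, 506 ± 216, 176 ± 115 and 168 ± 236 (SD, n = 4 each). Summed adipocyte markers ran from 21107.5 to 36508.0, 20267.4 to 115522.7, 11175.5 to 60765.4 and 18957.9 to 56414.6. No marker was listed at 0, and their part in the values of the cluster was not tested. With log2 cre as a covariate 0 of the 45037 probe sets passed by limma for RBX in non-diabetic mice, with 4084 at an unadjusted p under 0.05, and with the Actb ratio 73 passed.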

How the data were processed

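Per the labels' protocols, 2 ug of Trizol-extracted RNA from each whole aorta gave biotin-labelled cRNA for 1 Affymetrix array per mouse. Per the submitters' processing notes, the authors made the deposited signals with MAS5 (no version given). The deposited intensity is linear, with a lowest value of 0.7, and the mean after leaving out 2% at each end was 1500.01 on every array, so a change is read against the array's average. Detection calls were not used here. The 16 arrays limit the precision, and no pair was identical (highest rank correlation 0.942). The 4 mice of a group are labelled biological replicates.

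Probe sets were named from GEO's platform annotation: 34958 had 1 symbol, 932 several (0 with a member) and 9211 none. Signals were taken to log2 with no offset, and all 45037 probe sets but 64 controls were fitted with limma 3.58.1 in R 4.3.3, with 1 mean per group, an intensity trend, and 12 residual and 9.05 prior degrees of freedom. Two-sided p-values were Benjamini-Hochberg adjusted over all 45037. Correlations used 100000 permutations. List genes with several probe sets were read from the brightest. Named are the members, the members of each list that passed in any comparison, and the 5 genes most like each member; passing cell type markers are given as counts. The members and lists were chosen with earlier results of these data known. Promoter windows were read from RefSeq (GRCm38.p6). The fit was tested on simulated data. Replicate numbers 1 to 4 are not stated to pair mice. Over 24 pairs of same-numbered arrays the median correlation of deviations was 0.0074 (-0.108 to 0.102), which cannot exclude pairing.

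Alternatives tried were an offset of 30.5 before log2, quantile normalization, centring at the 75th percentile, 1 probe set per gene above the median signal (381.5, 11042 genes), no intensity trend, array weights, a replicate block and each array left out. The covariates log2 cre and log2 Actb 3' to 5' ratio were added after seeing the data.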

Additional observations from a re-analysis of the deposited data

Results flagged for a closer look

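In the non-diabetic RBX group, the Apoc2 signal of mouse 2, 273.6, lay far below the other 3 (647.0 to 689.7). On the log2 scale its gap to the nearest value was 0.931 of the group's range, above the 95% critical value of Dixon's test for 4 samples. Of 20 tests of a member in a group this was the 1 that passed, and chance gives about 1 in 20.

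By the limma interaction term, the effect of RBX in diabetic mice differed from that in non-diabetic mice for 10 list genes. In the flanking, lipase, receptor, liver X receptor and import lists these were 3 of 13, 2 of 10, 2 of 14, 1 of 13 and 2 of 13. Of the 5 cluster genes 0 passed (3 at an unadjusted p under 0.05), where 3.63% of all probe sets and 4.66% of all genes passed. Of the marker lists, 5 of 22 macrophage, 5 of 8 smooth muscle, 3 of 8 endothelial and 1 of 6 fibroblast markers also passed. Among the flanking genes the interaction was 1.05 for Bcam (limma adjusted p = 0.0311), -1.05 for Clasrp (limma adjusted p = 0.0345) and -1.05 for Nectin2 (limma adjusted p = 0.0451). In the lipoprotein lipase list it was -1.15 for Angptl4 (limma adjusted p = 0.0137) and -0.94 for Lpl (limma adjusted p = 0.0493). Among the receptors it was 1.35 for Sorl1 (limma adjusted p = 0.000357) and -1.59 for Cd36 (limma adjusted p = 0.00354). For the liver X receptor gene Nr1h3 it was -1.06 (limma adjusted p = 0.019), and in the import list it was -0.73 for Mtx2 (limma adjusted p = 0.0262) and -0.61 for Samm50. Over 25 alternatives the call held in 8 for Nectin2, 9 for Lpl, 12 for Clasrp, 13 for Bcam and Samm50, 16 for Mtx2, 21 for Nr1h3, 22 for Angptl4 and Cd36 and 24 for Sorl1. Each of these terms uses the non-diabetic RBX arrays, whose cre and Actb controls differed from the others, and with log2 cre as a covariate 3 of 45037 probe sets passed for the interaction.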

How the results depend on the processing

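The members' log2 fold changes were recomputed under 460 combinations of result and alternative. Direction and side of the threshold held in 405, 30 reversed, 12 lost and 13 gained a call, and none reversed while called. For Tomm40 with RBX in non-diabetic mice, 12 of 17 alternatives lost the call. With the replicate block it was 0.38 (limma adjusted p = 0.0535). Members called in that comparison were 2 with 1 probe set per gene above the median signal, 0 without the intensity trend, with array weights, with the replicate block, with cre and with Actb, and 0 to 1 with an array left out. For diabetes with RBX they were 1 with that filter or the offset, and for the interaction 1 with the filter, the offset or array weights, each being Apoe, and 0 to 1 with an array left out in both. The probe sets called were as follows. Diabetes without RBX gave 1 with no trend, 688 with weights, 130 with the block, 5 with cre, 24 with Actb and 4 to 256 with an array left out. Diabetes with RBX gave 784 with the filter, 244 with no trend, 63 with cre, 517 with Actb and 645 to 1661 with an array left out. RBX in non-diabetic mice gave 3494 with the filter, 3715 with no trend, 0 with cre, 73 with Actb and 3878 to 5701 with an array left out. RBX in diabetic mice gave 5 with the filter, 0 with no trend, 45 with weights, 18 with cre, 1 with Actb and 2 to 23 with an array left out. The interaction gave 384 with no trend, 3 with cre, 413 with Actb and 926 to 2029 with an array left out. The filter tests fewer probe sets; for the others the cause was not tested. Reversed values, none called, were as follows. With RBX in non-diabetic mice cre gave Apoe -0.28, Apoc4 2.44, Lpl -0.10, Pltp -0.10, Abcg1 -0.12 and Mtx2 -0.14, and Actb gave Apoc1 -1.71 and Apoc4 1.55. With an array left out, Apoc1 ran from -0.18 to 0.82 and Apoc4 from -0.70 to 0.43. With RBX in diabetic mice Actb gave Apoc1 -0.53, and arrays left out gave Apoc1 -0.24 to 0.37 and Apoc4 -0.20 to 0.81. For the interaction, Apoc1 was 0.072 under quantile normalization, 0.10 with weights, 1.18 with Actb and -0.67 to 0.32 with an array left out, and Apoc4 was -1.69 with cre, -0.62 with Actb and -0.11 to 1.03. Of the correlations, leaving out the 2 farthest arrays gave -0.161 for Tomm40 and Apoc1, -0.266 for Tomm40 and Apoc4, 0.0652 for Apoe and Apoc4 and -0.0938 for Apoc1 and Apoc4. Deviations from group means gave -0.326 for Apoe and Apoc2, -0.137 for Apoc1 and Apoc4 and -0.121 for Apoc1 and Apoc2. Low signals, as for Apoc4, limit precision, and signal over background was not known here.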
